A study of Mus musculus with 6 samples.

Results

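Red pulp macrophages clear aged red blood cells in the spleen and return their iron to the blood, and 7 genes that mark or serve these cells were followed here together with the 3 genes of complement C1q. The set was Cd5l, Spic, Hmox1, Slc40a1, Cd163, Adgre1, Vcam1, C1qa, C1qb and C1qc. Its members were all the probe sets annotated to these genes, which gave 16 probe sets of 45037 tested and 10 genes of the 18193 that had a probe set of their own. Every RNA came from female mice of the NOD strain, in which the immune system destroys the insulin-producing cells, and 6 Affymetrix mouse genome arrays were hybridized, 2 for each of 3 groups. The TSA-treated mice had been injected under the skin every week with Trichostatin A (TSA), an inhibitor of histone deacetylases, at 500 µg per kg between 18 and 24 weeks of age, and were non-diabetic when killed. The diabetic mice were untreated and had developed the disease. The untreated non-diabetic mice had not developed it by 36 weeks. All 3 groups are labelled as 32 to 36 weeks old, although the study's methods give younger ages for the TSA-treated and the diabetic mice, the diabetic mice being the youngest, so that age and group cannot be told apart. TSA-treated mice that became diabetic were left out by the study. The labels call the material splenocytes, whereas the methods describe RNA of spleens lysed in TRIzol.

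Each group was 1 RNA pool of 3 to 5 mice by the labels, or of slightly more by the methods, and its 2 arrays were separate labelings of that pool. The p-values given here therefore measure the spread between hybridizations and not between mice. Levels are log2 values as the authors normalized them, and differences are between group means on that scale, given with their standard error (SE) from limma, a linear model with variances moderated over all probe sets. Adjusted p-values are by Benjamini-Hochberg over all 45037 probe sets, and calls are those with an adjusted p under 0.05.

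In a healthy spleen, macrophages of the red pulp depend on the transcription factor Spic, which heme released from engulfed red blood cells induces. The cells break heme down with heme oxygenase and export the iron through ferroportin. C1q, the protein that starts the classical complement pathway and that tags dying cells for uptake, is made largely by tissue macrophages, with its A, B and C chains encoded by 3 neighbouring genes. In mouse the red pulp macrophages are also known by their surface protein F4/80, the product of Adgre1. In RNA of a whole tissue, fewer cells of a type and less RNA per cell cannot be told apart.

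The arrays were not equally alike. Pearson correlations between arrays over all probe sets lay between 0.932 and 0.993. The duplicates correlated at 0.966 in TSA-treated, 0.973 in diabetic and 0.993 in untreated non-diabetic mice, whereas TSA-treated array 1 correlated with diabetic array 2 at 0.990. The difference between the duplicates of a group had a standard deviation (SD) of 0.589 over all probe sets in TSA-treated, 0.522 in diabetic and 0.253 in untreated non-diabetic mice. The labeling starts at the 3′ end of a transcript, so that a large gap between the 3′ and 5′ probe sets of beta-actin marks shorter labeled RNA. That gap was 3.45 and 5.61 in TSA-treated, 2.42 and 3.32 in diabetic and 2.35 and 2.05 in untreated non-diabetic mice (arrays 1 and 2 of each). TSA-treated array 2 thus had the widest gap of the 6 arrays.

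Markers of other cells also differed between the pools. The log2 of the summed level of 6 measured erythroid markers of 8 was 13.80 to 14.12 in TSA-treated, 13.64 to 13.73 in diabetic and 13.40 to 13.40 in untreated non-diabetic mice. For 5 of 6 B cell markers it was 10.52 to 11.81 in TSA-treated, 12.39 to 12.53 in diabetic and 12.54 to 12.60 in untreated non-diabetic mice. Genes of pancreatic acinar cells, which a spleen does not hold, had a summed level (6 of 7 measured) of 11.27 to 11.56 in TSA-treated, 14.18 to 14.23 in diabetic and 7.20 to 7.30 in untreated non-diabetic mice. Of the lymphocyte markers that define spleen, all 5 of B cells and 5 of 6 of T cells lay above the median probe set. All 10 members also did so by their mean over the arrays. Over the 10 members the summed level was 12.53 to 12.85 in TSA-treated, 12.82 to 12.86 in diabetic and 12.52 to 12.55 in untreated non-diabetic mice. What part RNA length, pancreas RNA or the cell mixture had in the members' differences was not tested, save for the fit with the beta-actin gap given with C1q.

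No member was called in any comparison by limma, but the members separated in their directions. Set against untreated non-diabetic mice, both TSA-treated arrays were higher for Cd5l, Adgre1, Slc40a1, Spic (by 1 of its 2 probe sets), Cd163, Vcam1 and C1qb (each by 1 of its 3), and lower for C1qa, Hmox1 and another probe set of C1qb. In diabetic against untreated non-diabetic mice Cd5l, Spic, Slc40a1, Adgre1 and Vcam1 were higher on both arrays and Cd163 was lower. Between TSA-treated and diabetic mice most members overlapped.

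Counted by probe set, 0 of 16 were called between TSA-treated and untreated non-diabetic mice, where 0.0688% of all probe sets were called. At an unadjusted p under 0.05, 4 were higher (25.0%, against 6.39% of all probe sets) and 1 was lower (6.25%, against 8.34%). The TSA-treated arrays lay wholly above the untreated non-diabetic arrays in 8 of the 16 probe sets (26.3% of all) and wholly below in 3 (21.5%), and 5 overlapped. The median difference of the members was 0.20, beside 0.05 over all probe sets.

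Between diabetic and untreated non-diabetic mice, 0 of 16 were called (0.0888% of all probe sets), 3 were higher at an unadjusted p under 0.05 (2.84% of all) and 0 were lower (3.43%). The arrays of diabetic mice lay wholly above in 9 of 16 probe sets (21.6% of all) and wholly below in 1 (19.4%). This share of higher probe sets, 56.2%, stood above its background, but the 9 probe sets belong to 5 genes and were read on the same arrays. The median difference was 0.26, beside 0.01 over all probe sets.

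Between TSA-treated and diabetic mice, 0 of 16 were called (0.0266% of all probe sets). Only Cd163 reached an unadjusted p under 0.05, as a higher level (2.21% of all were higher and 2.06% lower). The TSA-treated arrays lay wholly above in 3 probe sets (16.2% of all) and wholly below in 3 (11.4%), and 10 overlapped. Both comparisons of TSA-treated mice use the same TSA-treated arrays, and both comparisons with untreated non-diabetic mice the same untreated non-diabetic arrays. A moderated F test over the 3 groups called 0 members (0.0933% of all probe sets), with a lowest adjusted p of 0.231 and 3 members at an unadjusted p under 0.05 (9.53% of all).

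**Figure D1:**
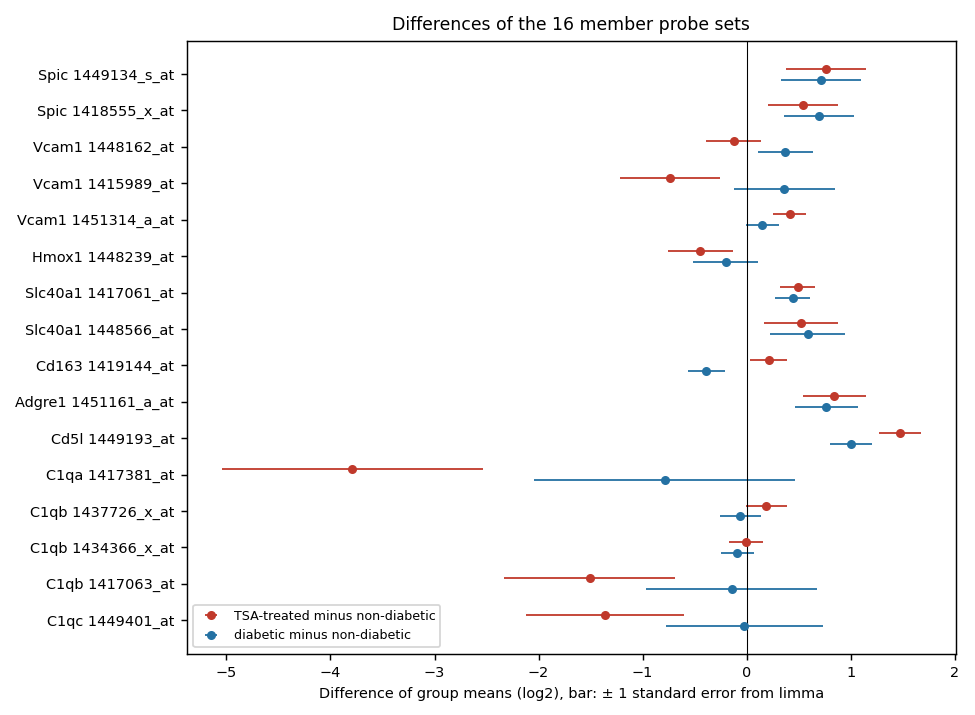
Differences of the 16 member probe sets between group means on the log2 scale, for TSA-treated minus untreated non-diabetic mice (red) and diabetic minus untreated non-diabetic mice (blue), with bars of 1 SE from limma to each side. Cd5l lies farthest to the higher side in both comparisons with untreated non-diabetic mice, at 1.47 and 1.00, and C1qa farthest to the lower side, at -3.79, with the widest error bar.

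Cd5l, a secreted scavenger protein also named AIM that macrophages make under control of the lipid receptors LXR, had the lowest adjusted p of the members. Its probe set 1449193_at had levels of 9.47 and 9.16 in TSA-treated, 8.71 and 8.98 in diabetic and 7.97 and 7.72 in untreated non-diabetic mice. The 3 groups did not overlap, with the TSA-treated arrays on top and the diabetic arrays between. The difference between TSA-treated and untreated non-diabetic mice was 1.47 (SE 0.20, limma adjusted p = 0.0974, range over 18 alternatives 0.0403 to 0.964). It passed the threshold in 2 of them. The first left out TSA-treated array 1, so that a single array stood for that group (difference 1.32). The other tested each gene by the mean of its probe sets, which tests fewer features (adjusted p = 0.0403). The share of all genes called in that setting is not given here, so that this pass has no background beside it. The direction was the same in all 18. Between diabetic and untreated non-diabetic mice the difference was 1.00 (SE 0.20, limma adjusted p = 0.682), and between TSA-treated and diabetic mice 0.47 (limma adjusted p = 0.902). The step from array 1 to array 2 of Cd5l was -0.31 in TSA-treated, 0.27 in diabetic and -0.25 in untreated non-diabetic mice, small beside its differences from untreated non-diabetic mice. With the beta-actin gap as a covariate the first of these differences was 1.62 (limma adjusted p = 0.964).

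The promoter of Cd5l is shown because it holds both kinds of letters searched for, the PU box GAGGAA that Ets-family factors such as PU.1 and Spi-C recognize, and TGCTGA, the core of a Maf recognition element. It is the 250 bases before the RefSeq start of the gene, chr3:87357631-87357880 on the plus strand of GRCm38.p6, with matches on either strand in capitals, and that of Spic is chr10:88683024-88683273 on the minus strand. Each is given 5′ to 3′ along the gene, from the reference genome and not from NOD mice.
Cd5l: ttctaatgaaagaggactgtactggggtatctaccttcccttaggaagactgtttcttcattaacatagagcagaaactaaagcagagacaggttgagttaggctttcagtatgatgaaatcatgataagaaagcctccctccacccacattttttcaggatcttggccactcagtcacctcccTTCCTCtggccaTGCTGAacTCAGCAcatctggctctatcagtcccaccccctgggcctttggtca
Spic: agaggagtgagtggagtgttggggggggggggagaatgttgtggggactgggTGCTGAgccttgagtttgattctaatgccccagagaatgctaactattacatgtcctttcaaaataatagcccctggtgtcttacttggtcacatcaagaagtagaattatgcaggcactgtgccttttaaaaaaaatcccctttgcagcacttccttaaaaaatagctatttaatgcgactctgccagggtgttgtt
The Cd5l promoter had a PU box at position -66, on the opposite strand as TTCCTC, and Maf cores at -54 and, on the opposite strand as TCAGCA, at -46, counted from the start of the gene to the first base of the match. The Spic promoter had 1 Maf core at -198 and no PU box in this window. Of 32851 promoters of the same length, 23.3% held a PU box and 16.1% a Maf core, and these motifs do not overlap each other. Such a match is a description of the letters only. RefSeq promoters were found for 5 of the 10 genes (Cd5l, Spic, Cd163, C1qb and C1qc), the others being not analysed here. That of Cd163, searched in the same way and not shown, held 0 PU boxes and 0 Maf cores.

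Spic itself, the factor that red pulp macrophages need to develop, was read by 2 probe sets whose names carry Affymetrix suffixes for probes that may match other transcripts. Probe set 1449134_s_at had levels of 8.62 and 7.67 in TSA-treated, 7.71 and 8.48 in diabetic and 7.43 and 7.34 in untreated non-diabetic mice. Probe set 1418555_x_at had 8.46 and 7.54 in TSA-treated, 7.94 and 8.38 in diabetic and 7.56 and 7.37 in untreated non-diabetic mice. On both probe sets the highest arrays were TSA-treated array 1 and diabetic array 2, the pair of arrays from different groups that correlated at 0.990 overall. By 1449134_s_at the difference was 0.76 (SE 0.38, limma adjusted p = 0.438) between TSA-treated and untreated non-diabetic mice, 0.71 (adjusted p = 0.853) between diabetic and untreated non-diabetic mice and 0.04 between TSA-treated and diabetic mice, the last smaller than the spread between duplicates.

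Of the genes for heme and iron, Slc40a1 encodes ferroportin, which carries iron out of the cell. Its probe set 1417061_at had levels of 11.37 and 11.58 in TSA-treated, 11.34 and 11.52 in diabetic and 11.02 and 10.96 in untreated non-diabetic mice. Both TSA-treated and both diabetic arrays lay above both untreated non-diabetic arrays, and TSA-treated and diabetic arrays overlapped. The difference was 0.49 (SE 0.17, limma adjusted p = 0.270) between TSA-treated and untreated non-diabetic mice and 0.44 (SE 0.17, adjusted p = 0.794) between diabetic and untreated non-diabetic mice. The other probe set, 1448566_at, had levels of 9.16 and 8.32 in TSA-treated, 8.44 and 9.18 in diabetic and 8.22 and 8.22 in untreated non-diabetic mice. Its differences from untreated non-diabetic mice were 0.52 in TSA-treated (adjusted p = 0.569) and 0.59 in diabetic mice (adjusted p = 0.883), and again TSA-treated array 1 and diabetic array 2 were the highest.

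Hmox1, the inducible heme oxygenase that opens the heme ring, did not go with Slc40a1. Its levels were 4.61 and 4.68 in TSA-treated, 5.34 and 4.44 in diabetic and 4.93 and 5.25 in untreated non-diabetic mice, near the array medians of 3.79 to 3.95. The TSA-treated arrays lay below both untreated non-diabetic arrays (difference -0.45, limma adjusted p = 0.581), and the diabetic arrays spanned the range of the others, with a difference of -0.20 from untreated non-diabetic mice. Over the 6 arrays Hmox1 correlated with Spic at -0.729, a description of arrays from 3 pools that share their RNA in pairs. Cd163, the receptor that takes up hemoglobin bound to haptoglobin, had levels of 5.68 and 5.57 in TSA-treated, 5.18 and 4.87 in diabetic and 5.38 and 5.44 in untreated non-diabetic mice. It was the only member whose diabetic arrays lay below all others, and its difference was 0.60 between TSA-treated and diabetic mice (unadjusted p = 0.0149, limma adjusted p = 0.902), 0.21 between TSA-treated and untreated non-diabetic mice (adjusted p = 0.645) and -0.39 between diabetic and untreated non-diabetic mice (adjusted p = 0.810).

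**Figure D2:**
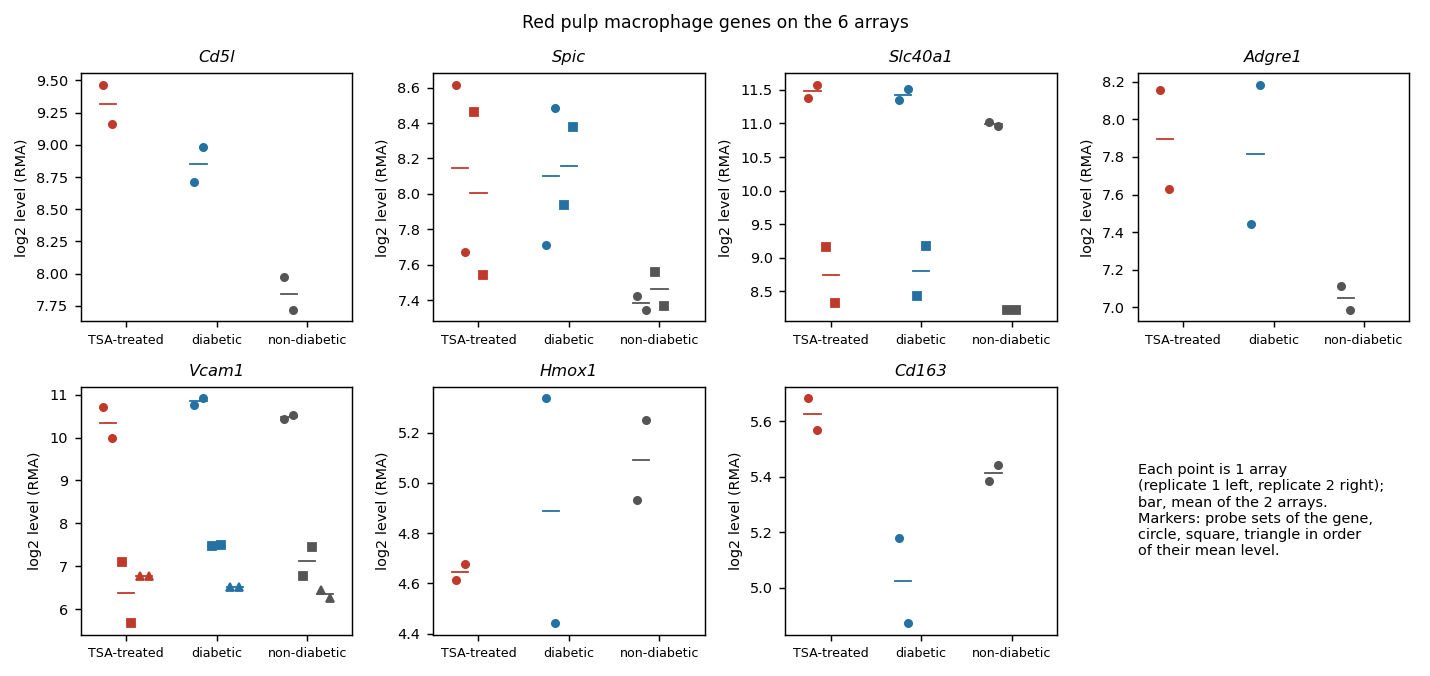
Log2 levels of the macrophage members on each array of TSA-treated, diabetic and untreated non-diabetic mice, with points for arrays (array 1 on the left), bars for group means and a marker shape for each probe set of a gene. Cd5l is ordered with no overlap between groups, whereas Spic and Adgre1 have their highest arrays in TSA-treated array 1 and diabetic array 2.

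At the cell surface, Adgre1 encodes F4/80, an adhesion-type receptor used to mark mouse macrophages. Its probe set 1451161_a_at had levels of 8.16 and 7.63 in TSA-treated, 7.45 and 8.18 in diabetic and 7.11 and 6.99 in untreated non-diabetic mice. Both of the other groups lay above untreated non-diabetic mice and overlapped each other. The difference was 0.84 (SE 0.30, limma adjusted p = 0.290) between TSA-treated and untreated non-diabetic mice and 0.76 (SE 0.30, adjusted p = 0.796) between diabetic and untreated non-diabetic mice. Over the 6 arrays Adgre1 correlated with Spic at 0.967 and with Cd5l at 0.892, and Slc40a1 correlated with Cd5l at 0.894, described over arrays that share pools and hybridization.

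Vcam1, the adhesion molecule that binds integrins carrying the α4 chain and that red pulp macrophages and endothelium display, was read by 3 probe sets. Of these, 1448162_at and 1415989_at went together (Pearson r 0.912 over the 6 arrays), and 1451314_a_at differed from them. Probe set 1448162_at had levels of 10.71 and 9.98 in TSA-treated, 10.77 and 10.93 in diabetic and 10.42 and 10.52 in untreated non-diabetic mice, and 1415989_at had 7.09 and 5.66 in TSA-treated, 7.46 and 7.49 in diabetic and 6.77 and 7.45 in untreated non-diabetic mice. Both were lowest on TSA-treated array 2 and highest in diabetic mice. Probe set 1451314_a_at had 6.77 and 6.76 in TSA-treated, 6.50 and 6.50 in diabetic and 6.44 and 6.26 in untreated non-diabetic mice, so that here the TSA-treated arrays were on top. Accordingly the difference between TSA-treated and diabetic mice was -0.50 by 1448162_at, -1.10 by 1415989_at and 0.26 by 1451314_a_at, none of them called by limma. The last was the only member with an unadjusted p under 0.001 by an unmoderated t-test in this comparison (0.0533% of all probe sets), a threshold chosen here, and it did not pass that test after adjustment. That t-test takes its spread from the duplicates alone, whose SD was 0.010 in TSA-treated and 9.2e-05 in diabetic mice. By limma the unadjusted p of the same difference was 0.147. In diabetic against untreated non-diabetic mice all 3 were higher without overlap, by 0.37, 0.36 and 0.15, the adjusted p of the first being 0.916.

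Among the C1q genes lay the widest difference of the set, and C1qa, C1qc and 1 of 3 C1qb probe sets had their lowest values on TSA-treated array 2. C1qa, which encodes the A chain, had levels of 7.24 and 3.42 in TSA-treated, 9.30 and 7.36 in diabetic and 9.07 and 9.17 in untreated non-diabetic mice. The TSA-treated arrays lay below all others, with array 2 the lowest of the 6. Its value of 3.42 was below the median of that array, 3.95, where signal is near background and a level has no exact size, so that the differences of C1qa that rest on it are not exact sizes either. The difference was -3.79 (SE 1.25, limma adjusted p = 0.257) between TSA-treated and untreated non-diabetic mice, -3.00 (adjusted p = 0.902) between TSA-treated and diabetic mice and -0.79 (adjusted p = 1) between diabetic and untreated non-diabetic mice. Without TSA-treated array 1 the first of these was -5.70 (adjusted p = 0.0359), the single remaining array being assumed to vary like the others, and without TSA-treated array 2 it was -1.88 (adjusted p = 0.424). Over 18 alternatives its adjusted p ranged over 1.29e-11 to 0.964. By the local pooled error (LPE) test, which takes its spread from probe sets of similar level, C1qa was called between TSA-treated and untreated non-diabetic mice (adjusted p = 1.29e-11, 3.59% of all probe sets called at 0.05 and 1.69% at 0.001, the threshold the methods name for this test) and between TSA-treated and diabetic mice (adjusted p = 0.000674, 0.129% called at 0.05 and 0.0866% at 0.001).

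C1qc, for the C chain, had levels of 9.25 and 6.72 in TSA-treated, 9.44 and 9.21 in diabetic and 9.48 and 9.22 in untreated non-diabetic mice. TSA-treated array 1 thus lay within the range of the other groups and array 2 far below it. The difference between TSA-treated and untreated non-diabetic mice was -1.36 (SE 0.76, limma adjusted p = 0.478). Without array 1 of the TSA-treated mice it was -2.63 (adjusted p = 0.0177), and without their array 2 it was -0.10, and over 18 alternatives its adjusted p ranged over 0.0177 to 0.983. Leaving out TSA-treated array 1 called 4 of the 16 member probe sets between TSA-treated and untreated non-diabetic mice, those of Cd5l, C1qa, C1qc and C1qb by 1417063_at (4.54% of all probe sets called). It called 2 between TSA-treated and diabetic mice, C1qc and the same C1qb probe set (2.32% called). Without TSA-treated array 2 the difference of C1qb by 1417063_at was -0.15 against untreated non-diabetic mice and -0.0025 against diabetic mice.

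C1qb, for the B chain, was read by 3 probe sets that differed from each other. Probe set 1417063_at followed C1qc, with levels of 8.53 and 5.81 in TSA-treated, 8.82 and 8.25 in diabetic and 8.64 and 8.72 in untreated non-diabetic mice, a difference of -1.51 (SE 0.82, limma adjusted p = 0.469) between TSA-treated and untreated non-diabetic mice. The probe sets 1437726_x_at and 1434366_x_at did not. The first of them had 9.72 and 9.37 in TSA-treated, 9.44 and 9.15 in diabetic and 9.36 and 9.35 in untreated non-diabetic mice. The second had 8.93 and 8.81 in TSA-treated, 8.86 and 8.71 in diabetic and 8.81 and 8.94 in untreated non-diabetic mice. Between TSA-treated and untreated non-diabetic mice their differences were 0.19 and -0.00, so that 1 gene gave a difference of -1.51 and of about 0 by its own probe sets. The suffix x of both names marks probes that may match other transcripts. Where along the transcript each probe set lies was not analysed here.

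**Figure D3:**
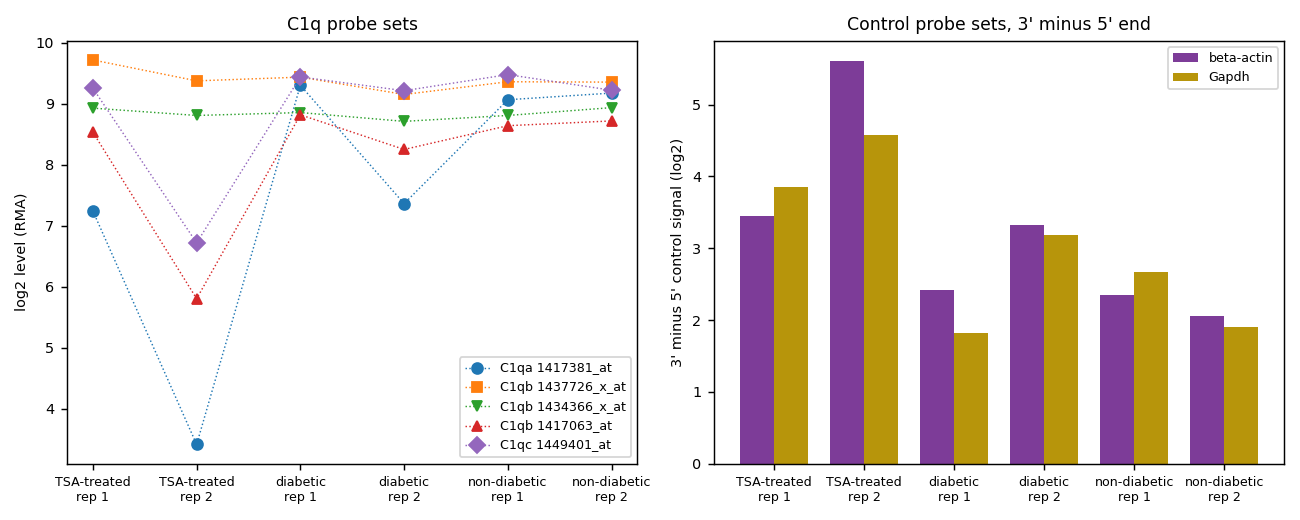
Log2 levels of the C1q probe sets on each of the 6 arrays, joined by dotted lines to guide the eye, beside the 3′ minus 5′ gap of beta-actin and Gapdh on the same arrays. C1qa, C1qc and C1qb by 1417063_at drop on TSA-treated array 2, where the beta-actin gap is 5.61, and the other C1qb probe sets do not.

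Set against all probe sets, the step from array 1 to array 2 of the same TSA-treated pool was -3.82 for C1qa, -2.73 for C1qb by 1417063_at and -2.53 for C1qc. A step at least as low was seen in 16, 149 and 201 of the 45037 probe sets (0.0355%, 0.331% and 0.446%), these members included. The other C1qb probe sets stepped by -0.34 and -0.12. The widest span between probe sets of C1qb in that step was 2.61, and 121 of 4731 genes with more than 1 probe set above the median level had a span at least as wide, the median being 0.789. In diabetic mice the step of C1qa was -1.94 (9.30 on array 1 and 7.36 on array 2), while the untreated non-diabetic arrays differed by 0.11.

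The low C1q values lay on the array with the widest beta-actin gap. When that gap was added to the fit as a covariate, a choice made after seeing the data, the difference between TSA-treated and untreated non-diabetic mice was 0.42 for C1qa, 0.99 for C1qc and 1.18 for C1qb by 1417063_at, all 3 with a limma adjusted p of 0.964. The gap was wider on both TSA-treated arrays than on any other, so that it and the treatment are largely not separable in this fit. The part of the gap in the C1q values was not tested beyond it.

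**Figure D4:**
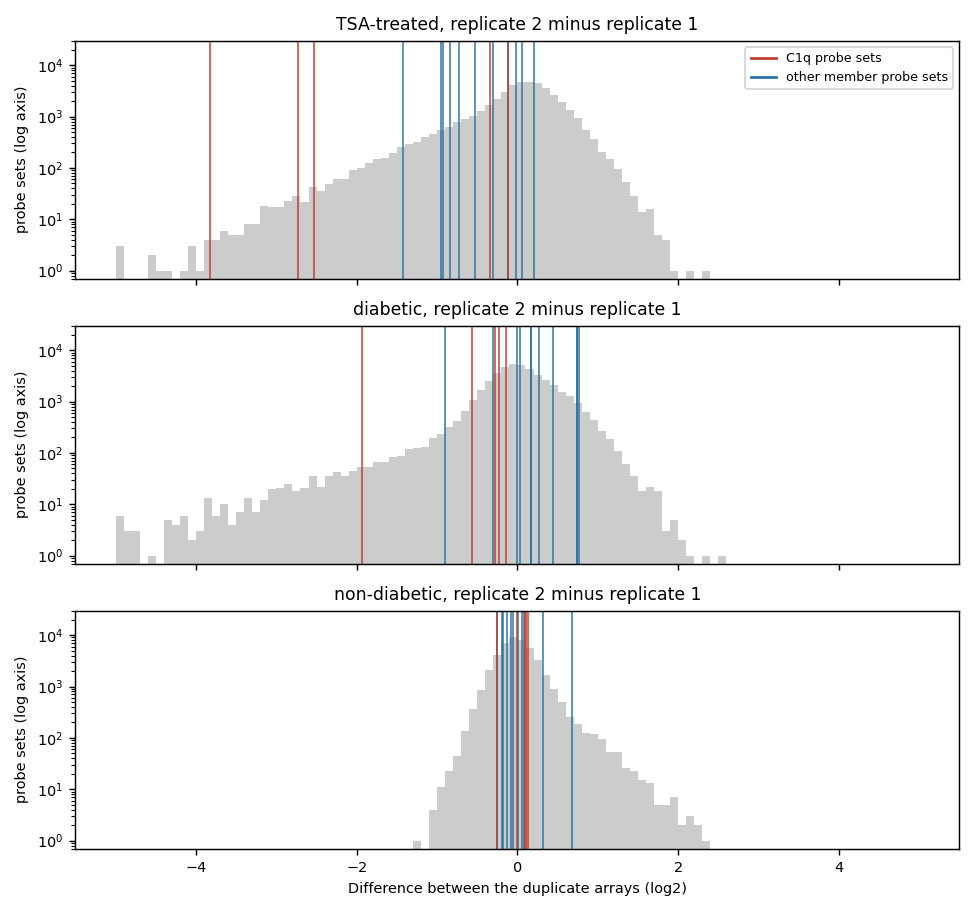
Number of probe sets (log axis) by the log2 difference between array 2 and array 1 of the same pool, for TSA-treated, diabetic and untreated non-diabetic mice from top to bottom, with lines for the C1q (red) and other member probe sets (blue) and differences beyond 5 placed in the end bins. In TSA-treated mice C1qa at -3.82 lies in the outer tail, and the C1qb probe sets at -0.34 and -0.12 lie near the centre.

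The promoters of C1qb and C1qc are shown because the pair lie side by side on chromosome 4, with C1qa next to C1qc, and yet differ in their motifs. The windows are chr4:136886201-136886450 for C1qb and chr4:136892915-136893164 for C1qc, both on the minus strand of GRCm38.p6, 250 bases before the RefSeq start, with PU boxes and Maf cores in capitals.
C1qb: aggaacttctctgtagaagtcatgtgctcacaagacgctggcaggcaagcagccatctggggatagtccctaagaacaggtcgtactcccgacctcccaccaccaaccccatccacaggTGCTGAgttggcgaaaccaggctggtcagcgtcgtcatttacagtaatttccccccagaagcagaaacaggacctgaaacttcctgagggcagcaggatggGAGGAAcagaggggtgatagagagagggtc
C1qc: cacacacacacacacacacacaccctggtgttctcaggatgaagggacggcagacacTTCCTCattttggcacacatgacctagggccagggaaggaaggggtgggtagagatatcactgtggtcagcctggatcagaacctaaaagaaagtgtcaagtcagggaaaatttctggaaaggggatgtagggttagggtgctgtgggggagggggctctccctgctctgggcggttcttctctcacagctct
C1qb had a PU box at -30 and a Maf core at -131, and C1qc a PU box on the opposite strand, as TTCCTC, at -193 and no Maf core. The shares of all promoters that hold each motif are those given with Cd5l.

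Genes with a profile over the 6 arrays most like that of C1q, taken as the mean of C1qa, C1qb by 1437726_x_at and C1qc, were Mtch1, Gne, Denn2b, Yif1b and Sfxn1 (Pearson r 0.996 to 0.998 over 6 arrays of 3 pools, out of 11709 genes ranked). That mean was not a profile all 3 C1q genes shared. C1qa correlated with C1qc at 0.933, whereas this C1qb probe set correlated with C1qa at -0.0095 and with C1qc at 0.072. Mtch1 was at 6.32 and 4.83 in TSA-treated, 6.80 and 6.21 in diabetic and 6.82 and 6.66 in untreated non-diabetic mice, and all 5 were lowest on TSA-treated array 2. Those most like Spic were Mkln1, Gins4, Golph3, Cyb5r4 and 1110032A03Rik (r 0.996 to 0.997, of 11711). Golph3, for a protein of the Golgi membrane, was at 9.12 and 7.95 in TSA-treated, 8.14 and 8.99 in diabetic and 7.66 and 7.67 in untreated non-diabetic mice, with the same high arrays as Spic. For Hmox1 the nearest was Ptms (r 0.991), with 6.99 and 7.18 in TSA-treated, 7.72 and 6.89 in diabetic and 7.37 and 7.60 in untreated non-diabetic mice. These ranks come from 6 arrays that share pools and hybridization, and bear no test.

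Around the members, 7 lists of related genes had 0 genes called in all 3 comparisons. Of 15 measured genes for heme and iron, 5 were higher and 0 lower in TSA-treated than in untreated non-diabetic mice at an unadjusted p under 0.05, beside 8.80% higher and 7.19% lower over all genes, each by its brightest probe set. The median difference was 0.30, beside 0.07 over all genes. Ncoa4, the receptor that delivers ferritin for breakdown, was at 11.77 and 11.08 in TSA-treated, 10.90 and 11.47 in diabetic and 10.34 and 10.27 in untreated non-diabetic mice. It did not overlap between TSA-treated and untreated non-diabetic mice (difference 1.12, limma adjusted p = 0.202). Nfe2l2, the factor that induces Hmox1 under oxidative stress, differed by 0.87 (adjusted p = 0.228). In diabetic against untreated non-diabetic mice 3 of the 15 were higher and 0 lower (4.33% and 2.41% of all genes), with a median of 0.24 beside 0.04 over all genes. The summed level of the erythroid markers was also higher in both groups, and its part in these values was not tested.

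For macrophage transcription factors the median difference was below 0 between TSA-treated and untreated non-diabetic mice. Of 10 measured macrophage transcription factors, 0 were higher and 3 lower at an unadjusted p under 0.05 (8.80% and 7.19% of all genes), with a median of -0.28. Irf4, a factor of macrophages and lymphocytes, was at 7.22 and 4.76 in TSA-treated, 7.83 and 8.26 in diabetic and 7.89 and 7.92 in untreated non-diabetic mice (difference from untreated non-diabetic mice -1.91, limma adjusted p = 0.317). Irf8, which macrophages and B cells use, differed by -1.41 (adjusted p = 0.371). Besides Irf4, those past the unadjusted p were Spi1, which encodes PU.1, and Runx3 (difference -0.56). Spi1 was at 6.46 and 6.10 in TSA-treated, 7.21 and 6.68 in diabetic and 7.61 and 7.57 in untreated non-diabetic mice. Its difference was -1.31 (limma adjusted p = 0.127), and both TSA-treated arrays lay below all others. Irf4, Irf8 and Spi1 were all lowest on TSA-treated array 2. B cell markers were lower on both TSA-treated arrays, and their part was not tested.

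Of 19 other genes of red pulp and tissue macrophages, 4 were higher and 2 lower in TSA-treated than in untreated non-diabetic mice. This was at an unadjusted p under 0.05 (8.80% and 7.19% of all genes), with a median of -0.08. The 4 higher were Fcgr4 (difference 1.32, limma adjusted p = 0.0952), Mrc1 (1.26), Hpgd (0.86) and Fcgr1 (0.67). The 2 lower were Mertk and Gas6 (-0.90). Mertk, a receptor for dying cells, was at 5.57 and 4.92 in TSA-treated, 7.06 and 5.49 in diabetic and 7.18 and 7.29 in untreated non-diabetic mice (difference -1.99, limma adjusted p = 0.196). Cd68, a lysosomal protein of macrophages, was at 7.43 and 4.14 in TSA-treated, 7.13 and 7.82 in diabetic and 7.12 and 7.21 in untreated non-diabetic mice, so that again only TSA-treated array 2 was far from the rest (difference -1.38, adjusted p = 0.585). In diabetic against untreated non-diabetic mice 2 of these 19 were higher, 0 were lower (4.33% and 2.41% of all genes), and the median was 0.31. Genes of marginal zone macrophages, another macrophage type of the spleen, numbered 3, with a median of 0.15 and 0 past an unadjusted p under 0.05. Among them Marco differed by 0.70 (adjusted p = 0.634) and Cd209b by 0.15 (adjusted p = 0.795) between TSA-treated and untreated non-diabetic mice.

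A list of 14 genes held members of the classical, alternative and terminal complement pathways and receptors for C1q and other complement proteins. Of these, 0 were higher and 4 lower in TSA-treated than in untreated non-diabetic mice at an unadjusted p under 0.05. The shares of all genes were 8.80% and 7.19%, and the median of the list was -0.37. Calr, a chaperone that binds C1q at the cell surface, differed by -1.08 (limma adjusted p = 0.247), and Cfp, which stabilizes the alternative pathway convertase, by -1.07 (adjusted p = 0.444). Cfp was at 7.54 and 5.81 in TSA-treated and 7.81 and 7.68 in untreated non-diabetic mice, so that most of its difference lay on TSA-treated array 2. Cfp was not among the 4 past the unadjusted p. Besides Calr, these were C1ra (difference -0.97), Cr2 (-0.84) and Serping1 (-0.84). All 4 had both TSA-treated arrays below both untreated non-diabetic arrays. In diabetic mice 0 of the 14 passed and the median was -0.03. Of 7 integrin chains and other adhesion molecules listed with Vcam1, 0 were higher and 1 lower in TSA-treated than in untreated non-diabetic mice. This was at the same unadjusted p (8.80% and 7.19% of all genes), with a median difference of -0.65. The 1 lower was Itgb7, the β7 integrin chain, at 7.14 and 6.59 in TSA-treated and 8.21 and 7.91 in untreated non-diabetic mice (difference -1.19, limma adjusted p = 0.137). Itgb1, the β1 integrin chain, was at 7.81 and 5.43 in TSA-treated and 7.59 and 8.10 in untreated non-diabetic mice (difference -1.22, adjusted p = 0.510). Pecam1, an adhesion protein of endothelium, was at 5.13 and 3.06 in TSA-treated and 5.11 and 5.62 in untreated non-diabetic mice (difference -1.27, adjusted p = 0.438). Its value of 3.06 was below the median of TSA-treated array 2, 3.95, so that this difference is not an exact size. For Itgb1 and Pecam1, TSA-treated array 1 lay within the untreated non-diabetic range and array 2, with its beta-actin gap of 5.61, lay below it.

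Of 6 LXR and lipid genes that go with Cd5l, 0 were higher and 2 lower in TSA-treated than in untreated non-diabetic mice. This was at an unadjusted p under 0.05 (8.80% and 7.19% of all genes), with a median of -0.59. Apoe, a lipid carrier, was at 7.05 and 4.10 in TSA-treated, 7.65 and 7.40 in diabetic and 7.86 and 7.96 in untreated non-diabetic mice (difference -2.33, limma adjusted p = 0.305). Lpcat3, an enzyme of membrane lipids, was at 8.22 and 5.49 in TSA-treated and 7.53 and 7.59 in untreated non-diabetic mice (difference -0.70, adjusted p = 0.747), so that TSA-treated array 1 was above the untreated non-diabetic arrays and the sign came from array 2. The part of that array's beta-actin gap of 5.61 in these values was not tested. Besides Apoe, the gene past the unadjusted p was Abcg1 (difference -0.68, limma adjusted p = 0.203). It was at 8.22 and 7.92 in TSA-treated, 8.46 and 8.38 in diabetic and 8.65 and 8.87 in untreated non-diabetic mice. Both TSA-treated arrays lay below both untreated non-diabetic arrays in 5 of the 6 genes (21.5% of all probe sets). Cd5l, the member on which the LXR list was built, was thus higher in TSA-treated mice where the median of the list was lower.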

How the data were processed

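Total RNA of 3 pools was labeled in duplicate and hybridized to 6 arrays. The authors quantile-normalized the arrays and summarized them by Robust Multi-array Average (RMA), depositing log2 levels. Of 45101 probe sets, 64 controls were left out of the tests; no filter on level was applied. A gene was named from the platform annotation where a probe set names it alone, and lists used the probe set with the highest mean of each gene. A single limma fit (3.58.1, under R 4.3.3) took all arrays with a mean for each group, on 3 residual and 2.94 prior degrees of freedom, and was checked on simulated data. Alternatives were a replicate block, leaving out each array, the 2 groups alone, the methods' t-test, an LPE test written anew from its published description at an adjusted p under 0.05 and, as in the methods, under 0.001, trended or robust variances, a stricter threshold, a filter on dim probe sets, further normalizations and the mean of a gene's probe sets. Promoters are RefSeq's (GRCm38.p6). The members, lists and the rule for named genes (all members, the 2 genes of each list with the largest difference between TSA-treated and untreated non-diabetic mice above the median level, and the 5 genes most like C1q, Spic and Hmox1) were chosen with earlier results of these data known. Some further list genes past an unadjusted p under 0.05 were named after seeing the data.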

Additional observations from a re-analysis of the deposited data

How the results depend on the processing

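Signal over background and 2 arrays of 1 pool per group limit every value here. At levels near or below the array medians a change is compressed, as for Hmox1, and for C1qa, Pecam1, Apoe and Cd68 on TSA-treated array 2. The same replicate numbers did not pair the arrays: their deviations correlated at -0.04 (TSA-treated with untreated non-diabetic), -0.34 (diabetic with untreated non-diabetic) and -0.10 (TSA-treated with diabetic). With the replicate number as a block, limma called 30, 33 and 0 probe sets (TSA-treated against untreated non-diabetic, diabetic against untreated non-diabetic, TSA-treated against diabetic, as in every trio below), beside 31, 40 and 12 without the block. With the pairing crossed in diabetic mice, chosen after seeing the data, it called 27, 41 and 0, and neither block called a member. Each comparison's groups alone gave 714 in the first and 0 in the last comparison, an adjusted p under 0.001 gave 0, 20 and 0, the methods' t-test, for which they name no threshold, gave 142, 83 and 24 at an unadjusted p under 0.001 and 2, 1 and 0 after adjustment, and LPE gave 1615, 595 and 58, or 760, 208 and 39 at the methods' adjusted p under 0.001, added after seeing the data. The dim filter gave 22 and median centring 0 in the last comparison, renewed quantile normalization 60 in the first, and the beta-actin gap 0 in the first and last. Leaving out 1 array gave 0 to 2045, 23 to 243 and 0 to 1047, the highest without TSA-treated array 1, diabetic array 1 and TSA-treated array 1 in that order. Members called were 0 except in the settings that follow. LPE at either threshold called 1 in the first and last comparisons (C1qa), and the unadjusted t-test 1 in the last (Vcam1). Testing genes by the mean of their probe sets called Cd5l in the first. Leaving out 1 array called 0 to 4 in the first, 0 to 2 in the last and 0 to 2 by the moderated F test. The highest each time came without TSA-treated array 1, where a single array stood for that group. The share of all probe sets called by the F test without that array is not given here. Its count of 2 members thus has no background beside it.

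Of the 570 member differences recomputed, 537 kept their direction and their side of the threshold, 7 came to pass it and 26 reversed, none of them called by limma on all arrays. Between TSA-treated and untreated non-diabetic mice, Vcam1 ranged over -0.49 to 0.24 when 1 array was left out. Between diabetic and untreated non-diabetic mice the ranges were -0.65 to 0.25 for Hmox1, -1.76 to 0.18 for C1qa, -0.21 to 0.079 for C1qb and -0.15 to 0.10 for C1qc. Between TSA-treated and diabetic mice they were -0.43 to 0.52 for Spic, -0.69 to 0.20 for Hmox1, -0.056 to 0.15 for Slc40a1 and -0.29 to 0.45 for Adgre1. Median centring put C1qc at 0.031 between diabetic and untreated non-diabetic mice. The mean of all probe sets put C1qb at -0.44 against untreated non-diabetic and -0.34 against diabetic mice in TSA-treated mice, where Spic was at -0.055 and Slc40a1 at -0.0093 against diabetic mice. With the beta-actin gap, TSA-treated against untreated non-diabetic mice differed by 0.48 for Vcam1, 0.42 for C1qa and 0.99 for C1qc. Diabetic against untreated non-diabetic mice then differed by 0.42 for C1qa, 0.056 for C1qb and 0.65 for C1qc, and TSA-treated against diabetic mice by -0.14 for Slc40a1 and 0.33 for C1qc. The cause of these changes was not tested.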
